A study of Mus musculus with 6 samples.

Results

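The genes described here were 10 markers of satellite cells, myogenic regulatory factors and fusion genes, namely Pax7, Myf5, Myod1, Myog, Myf6, Mymk, Mymx, Cdh15, Mef2c and Sox11. They were chosen by gene symbol from the 41709 genes of the expression table, with earlier results of these data known. Counts of them beside all genes are therefore descriptive. All 10 were found, and 9 of them had a mean of at least 1 TPM (a transcript's share of its library after scaling by length), the minimum for a test. Sox11 was under that minimum. In these genes, the LrpprcP27A muscles had lower levels than the LrpprcWT muscles of the differentiation factor Myog (5.80-fold) and of the fusion genes Mymk (9.09-fold) and Mymx (11.5-fold), with a smaller difference for Myf5 (2.88-fold, all as ratios of the group means); these 4 passed the test on the deposited scale and under 3 other scalings. Those 4 calls were lost without LrpprcWT replicate 3 and in a fit with no minimum level, where the share of all genes called was not counted. They held with the mouse as a block. Throughout, libraries of the same replicate number are read as the same mouse, which the sources do not state outright. The folds of the fusion genes depended on LrpprcP27A replicate 1, without which they were 16.9-fold for Mymk and 36.0-fold for Mymx. The satellite cell adhesion molecule Cdh15 stood at 9.67 ± 0.444 TPM against 10.01 ± 0.140 TPM (SD, n = 3 each).

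Satellite cells are the resident stem cells of skeletal muscle. They lie between the fibre membrane and its basal lamina and are marked by the transcription factor Pax7. After injury they divide, switch on the myogenic regulatory factors Myf5 and MyoD, then myogenin, and become myoblasts, which fuse with one another or with existing fibres. Fusion needs the membrane proteins myomaker, encoded by Mymk, and myomixer, encoded by Mymx.

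The RNA came from the tibialis anterior (TA), a fast muscle of the lower leg, of male C57BL/6J mice whose age at sequencing is not given in the sources used here. The TA of one leg was electroporated with pCMV6-LrpprcWT-3xFlag and the contralateral TA with pCMV6-LrpprcP27A-3xFlag, and the muscles were collected 14 days later, with 3 libraries in each group. Lrpprc is an RNA-binding protein with a main role in mitochondrial mRNA stability, and in LrpprcP27A an alanine replaces the proline that can be dihydroxylated. Both groups carried a tagged Lrpprc under the CMV promoter, which is not specific to a cell type, and both underwent electroporation, so LrpprcWT is a control for the amino acid and not an untouched muscle. The comparison addressed whether the residue altered gene expression in the muscle.

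Read depth is unknown, since TPM keeps none, so no counting error can be given. Genes above 0 TPM numbered 18603 to 19053 in the LrpprcWT and 17774 to 18197 in the LrpprcP27A libraries, and transcripts of the mitochondrial genome held 36.0% to 45.2% and 44.2% to 46.1% of the TPM. Lrpprc itself, in which plasmid and mouse transcripts were not separated, stood at 35.1, 37.0 and 75.2 TPM in LrpprcWT replicates 1, 2 and 3 and at 26.9, 29.7 and 26.0 TPM in the LrpprcP27A replicates (log2 fold change -0.72, adjusted p = 0.0652 by limma). Every LrpprcP27A library was below every LrpprcWT library, and Lrpprc passed with the mouse as a block (adjusted p = 0.00243) but not after median-of-ratios scaling (-0.31, adjusted p = 0.402). By qRT-PCR the paper found similar Lrpprc mRNA with either plasmid, in muscles that need not be those sequenced. The part of the Lrpprc level in the differences described here was not tested. The fold change of most genes was negative on the deposited scale: the median log2 fold change of the 11611 genes tested was -0.32, and 88.0% of them were below 0. After median-of-ratios scaling that median was 0.036, with 44.9% below 0. The difference of each member is therefore given first on the deposited scale, as log2(TPM + 1) in LrpprcP27A minus LrpprcWT, and then under other scalings.

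The 250 bases before the gene start are shown for Myog and Mymk, the 2 tested members with the lowest log2 fold change, and for Cdh15, whose difference did not pass the test. They were read from GRCm39, 5′ to 3′ on the gene's strand, from Myog (chr1:134217457-134217706, plus strand), Mymk (chr2:26962229-26962478, minus strand) and Cdh15 (chr8:123574455-123574704, plus strand). Capitals mark an E-box (CANNTG, the letters that myogenic regulatory factors bind) or, in Cdh15, the MEF2 motif, a form of the letters bound by Mef2 factors. That motif was searched as YTAWWWWTAR, where Y is C or T, W is A or T and R is A or G.
Myog: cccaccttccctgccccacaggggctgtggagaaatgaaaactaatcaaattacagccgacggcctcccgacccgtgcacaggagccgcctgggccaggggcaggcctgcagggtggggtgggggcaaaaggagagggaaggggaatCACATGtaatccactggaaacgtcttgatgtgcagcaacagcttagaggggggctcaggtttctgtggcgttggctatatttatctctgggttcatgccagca
Mymk: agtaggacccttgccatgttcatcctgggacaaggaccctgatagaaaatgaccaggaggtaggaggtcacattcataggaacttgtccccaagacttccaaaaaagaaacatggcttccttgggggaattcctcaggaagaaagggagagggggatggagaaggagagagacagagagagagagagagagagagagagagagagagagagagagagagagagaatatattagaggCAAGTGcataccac
Cdh15: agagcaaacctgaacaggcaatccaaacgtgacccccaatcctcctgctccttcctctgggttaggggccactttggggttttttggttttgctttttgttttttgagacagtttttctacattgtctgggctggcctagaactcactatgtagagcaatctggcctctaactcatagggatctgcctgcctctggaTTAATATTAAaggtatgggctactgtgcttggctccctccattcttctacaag

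The Myog window held 1 E-box, CACATG, with its first base 103 bases before the gene start, and the Mymk window held 1, CAAGTG, 14 bases before it. The Cdh15 window held no E-box and 1 MEF2 motif, TTAATATTAA, 53 bases before the start. Searched on both strands, E-boxes were present in 6 of the 9 members searched and in 66.5% of the 21757 protein-coding genes with such a window. The form CAGCTG, which is one kind of E-box, was present in 2 members (Pax7 and Myod1) and in 12.04% of all, and the MEF2 motif in 2 members (Myf6 and Cdh15) and in 3.09% of all. Only full matches were counted. The letters CTATATTTAT in the Myog window depart from the MEF2 motif in the last letter alone and were not counted. These are matches of letters and not sites of measured binding.

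Of the 9 members tested, 6 fell in LrpprcP27A and 0 rose at an adjusted p under 0.05 (limma, Benjamini-Hochberg over all 11611 genes). The members that fell were Pax7, Myf5, Myog, Myf6, Mymk and Mymx. Among all genes tested, 23.3% fell and 1.34% rose, and no member rose at an unadjusted p under 0.05 either. The median log2 fold change of the 9 members was -0.66 beside -0.32 for all genes. After median-of-ratios scaling the members' median was -0.33, and 4 members fell (Myf5, Myog, Mymk and Mymx) beside 5.8% of all genes. The same 4 members fell after rescaling over nuclear protein-coding genes, where 5.46% of all genes fell, and after quantile normalization, where 4.46% fell. Those 2 scalings put the members' median at -0.58 and -0.34. With the mouse as a block, which the contralateral muscles allow, 8 members fell beside 48.4% of all genes. With the block and median-of-ratios scaling together, the 4 members named fell beside 14.1% of all genes, and 1 member, Cdh15, rose beside 17.2%.

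In 7 of the 9 members every LrpprcP27A library was below every LrpprcWT library, as in 47.6% of all genes tested. Cdh15 and Myod1 were the exceptions. Sox11, outside the tested genes, also had no overlap. Within LrpprcWT, replicate 2 was the lowest library for 8 of the 10 members. Replicate 1 of LrpprcWT was the highest of all 6 libraries for 5 members and replicate 3 for 4. The lowest of the 6 was LrpprcP27A replicate 3 for 6 members and replicate 2 for 3. In whole muscle, fewer cells of a type and less RNA per cell cannot be told apart.

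**Figure D1:**
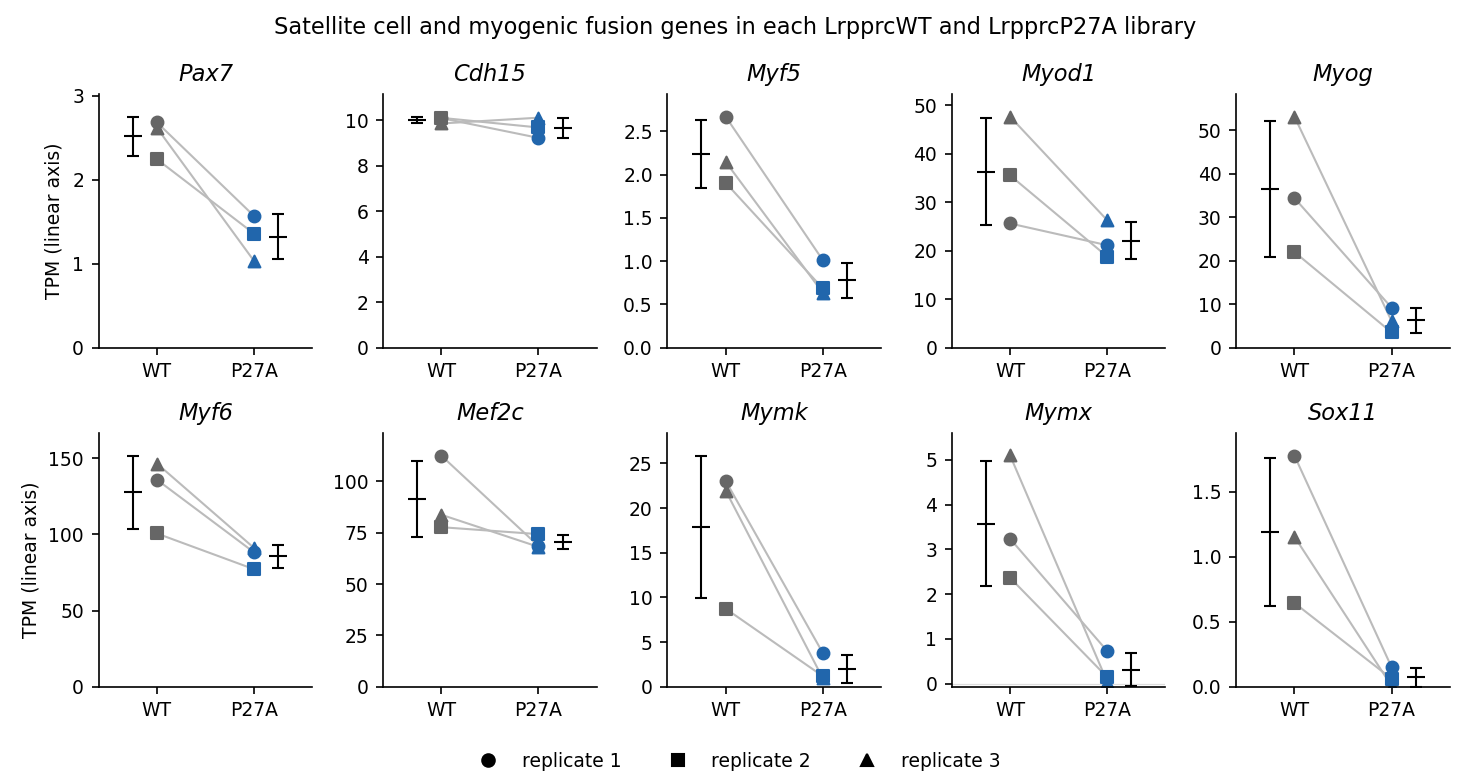
Level of each gene in TPM in the 3 LrpprcWT and 3 LrpprcP27A libraries. The linear axis starts at 0, or just below it for Mymx and Sox11, where the LrpprcP27A SD exceeds the mean. Grey lines join the muscles with the same replicate number, and black bars give the mean and SD (n = 3). Myog, Mymk and Mymx fell in every pair, with no overlap between groups, whereas Cdh15 lay between 9.22 and 10.1 TPM in all 6 libraries.

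By level, LrpprcWT muscles ranked Myf6 first (mean 127.7 TPM), then Mef2c (91.3), Myog (36.5), Myod1 (36.3), Mymk (17.9), Cdh15 (10.01), Mymx (3.57), Pax7 (2.51), Myf5 (2.24) and Sox11 (1.19). The libraries of neighbours in that order overlapped, except those of Mef2c and Myog, of Myod1 and Mymk, of Cdh15 and Mymx and of Myf5 and Sox11. In LrpprcP27A muscles the order by mean TPM was Myf6 (85.5), Mef2c (70.3), Myod1 (22.1), Cdh15 (9.67), Myog (6.29), Mymk (1.97), Pax7 (1.32), Myf5 (0.777), Mymx (0.311) and Sox11 (0.0728). There Myod1 and Cdh15 stood above Myog in every library, Cdh15 by very little in replicate 1 (9.218 against 9.200 TPM). The fusion genes were among the genes of about 2 TPM or less. Neighbours whose libraries did not overlap in this group were Myf6 and Mef2c, Mef2c and Myod1, Myod1 and Cdh15, Cdh15 and Myog, and Pax7 and Myf5.

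Pax7, the transcription factor that marks satellite cells, lies on chr4:139464373-139560839 (GRCm39, minus strand, 9 exons). Its level was 2.68, 2.24 and 2.62 TPM in LrpprcWT replicates 1, 2 and 3 and 1.57, 1.36 and 1.03 TPM in the LrpprcP27A replicates. All LrpprcP27A libraries were lower, and the mean was 52.5% of that of LrpprcWT. Its log2 fold change was -0.60 (SE 0.15, 95% interval -0.94 to -0.27, adjusted p = 0.0277 by limma). After median-of-ratios scaling it was -0.33 and did not pass (adjusted p = 0.102), nor did it pass after rescaling over nuclear protein-coding genes (-0.58, adjusted p = 0.066) or quantile normalization (-0.22, adjusted p = 0.227). It also did not pass without LrpprcWT replicate 1 (adjusted p = 0.0929) or 3 (0.114), or without LrpprcP27A replicate 2 (0.0899) or 3 (0.101). Pax7 passed with the mouse as a block (adjusted p = 0.00248 by limma), but not with median-of-ratios scaling added (0.057).

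Cdh15 encodes M-cadherin, which holds satellite cells to the fibre and is also made by myoblasts (chr8:123574705-123596048, plus strand, 14 exons). It stood at 10.1, 10.1 and 9.85 TPM in LrpprcWT and at 9.22, 9.68 and 10.1 TPM in LrpprcP27A. The groups overlapped, and the log2 fold change was -0.05 (SE 0.12, 95% interval -0.31 to 0.22, adjusted p = 0.749). Of the 11611 genes tested, 9824 had a lower fold change. The sign turned with the scaling: the log2 fold change was 0.34 after median-of-ratios scaling (adjusted p = 0.0979), 0.31 after quantile normalization (adjusted p = 0.13) and 0.13 after rescaling over nuclear protein-coding genes (adjusted p = 0.381). With the mouse as a block and median-of-ratios scaling, Cdh15 was called higher (0.34, adjusted p = 0.0378). Both markers belong to satellite cells, yet the ratio of Cdh15 to Pax7 within a library was 3.76, 4.50 and 3.77 in LrpprcWT and 5.88, 7.13 and 9.79 in LrpprcP27A. That ratio does not move with the scaling of a library, and it was higher in every LrpprcP27A library, by 0.89 on the log2 scale.

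Myf5 and Myod1 encode the factors that commit cells to the muscle lineage. Myf5 lies on chr10:107318769-107321995 and Myf6 on chr10:107328712-107330656, both on the minus strand with 3 exons, 6717 bases apart. Myf5 stood at 2.67, 1.90 and 2.15 TPM in LrpprcWT and at 1.01, 0.685 and 0.635 TPM in LrpprcP27A. Each LrpprcP27A library was below all LrpprcWT libraries, and within the 3 mice the level in LrpprcP27A was 0.296 to 0.379 of that in LrpprcWT. The log2 fold change was -0.87 (SE 0.16, 95% interval -1.22 to -0.51, adjusted p = 0.016). It fell under the 3 other scalings too, with values of -0.63 (median-of-ratios, adjusted p = 0.0304), -0.96 (nuclear protein-coding, 0.0373) and -0.48 (quantile, 0.0451). The call was lost without LrpprcWT replicate 1 (adjusted p = 0.0536) or 3 (0.0918) and without LrpprcP27A replicate 3 (0.0523). Blocking by mouse gave adjusted p = 0.000103 by limma, and 0.00982 with median-of-ratios scaling added.

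Myod1 (chr7:46025870-46028526, plus strand, 3 exons) was measured at 25.6, 35.5 and 47.6 TPM in LrpprcWT and at 21.1, 18.8 and 26.3 TPM in LrpprcP27A. Replicate 3 of LrpprcP27A was above replicate 1 of LrpprcWT, so the groups overlapped, although LrpprcP27A was lower in each of the 3 mice (0.529 to 0.825 of LrpprcWT). The log2 fold change was -0.66 (SE 0.22, 95% interval -1.16 to -0.17) and did not pass the test (adjusted p = 0.054). With the mouse as a block the adjusted p was 0.000749. Median-of-ratios scaling gave -0.25 (adjusted p = 0.472), and with the block added to that scaling the adjusted p was 0.276.

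Myog encodes myogenin, which drives myoblasts into differentiation and is also made by denervated fibres. It lies on chr1:134217707-134220287 (plus strand, 3 exons), and an exon of the long non-coding gene Gm32221 on the other strand overlaps it. The library kit does not mark strand, so reads of the pair cannot be told apart where they overlap. No gene with the symbol Gm32221 was in the expression table. Myog stood at 34.4, 22.0 and 53.1 TPM in LrpprcWT and at 9.20, 3.51 and 6.16 TPM in LrpprcP27A. The highest LrpprcP27A library was below the lowest LrpprcWT library, and the level in LrpprcP27A was 0.267, 0.160 and 0.116 of that in LrpprcWT in mice 1, 2 and 3. The log2 fold change was -2.35 (SE 0.35, 95% interval -3.15 to -1.56, adjusted p = 0.0116), and 24 of the 11611 genes tested had a lower one. Under the other scalings it was -1.97 (median-of-ratios, adjusted p = 0.0242), -2.26 (nuclear protein-coding, 0.0319) and -2.02 (quantile, 0.029). The call was lost without LrpprcWT replicate 3, the library with the highest Myog (log2 fold change -2.05, adjusted p = 0.0855), and held without any of the other libraries. Those fits left the pairing out. Myog had adjusted p = 4.84e-09 by limma with the mouse as a block, and 0.00534 with median-of-ratios scaling added.

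Myf6, also called MRF4, is the regulatory factor made most by adult fibres. It stood at 136.0, 100.6 and 146.6 TPM in LrpprcWT and at 88.3, 77.2 and 91.2 TPM in LrpprcP27A. The groups did not overlap, and the mean in LrpprcP27A was 67.0% of that in LrpprcWT, with a log2 fold change of -0.56 (SE 0.15, 95% interval -0.90 to -0.21, adjusted p = 0.0348). The value was -0.14 with median-of-ratios scaling (adjusted p = 0.3), -0.31 with quantile normalization (0.105) and -0.37 with rescaling over nuclear protein-coding genes (0.0931), so the call rested on the deposited scale. Blocked by mouse on that scale, Myf6 had adjusted p = 0.00105 by limma, and 0.164 with median-of-ratios scaling added. The call held without LrpprcWT replicate 2 (adjusted p = 0.00365) and was lost without each other library (adjusted p 0.0575 without LrpprcP27A replicate 1, 0.117 without replicate 2 and 0.0742 without replicate 3; 0.114 without LrpprcWT replicate 1 and 0.132 without replicate 3).

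Mef2c encodes a MADS-box factor that binds together with myogenic regulatory factors (chr13:83652064-83815555, plus strand, 10 exons). It stood at 112.5, 77.7 and 83.7 TPM in LrpprcWT and at 68.6, 74.3 and 68.1 TPM in LrpprcP27A. The groups did not overlap, with LrpprcWT replicate 1 far above the rest, but the log2 fold change of -0.35 (SE 0.15, 95% interval -0.68 to -0.02) was near the median of all genes and did not pass the test (adjusted p = 0.0908). It passed with the mouse as a block (adjusted p = 0.0321) and without LrpprcWT replicate 2 (-0.46, adjusted p = 0.0249). After median-of-ratios scaling the sign turned, to 0.06 (adjusted p = 0.76, and 0.672 with the block).

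**Figure D2:**
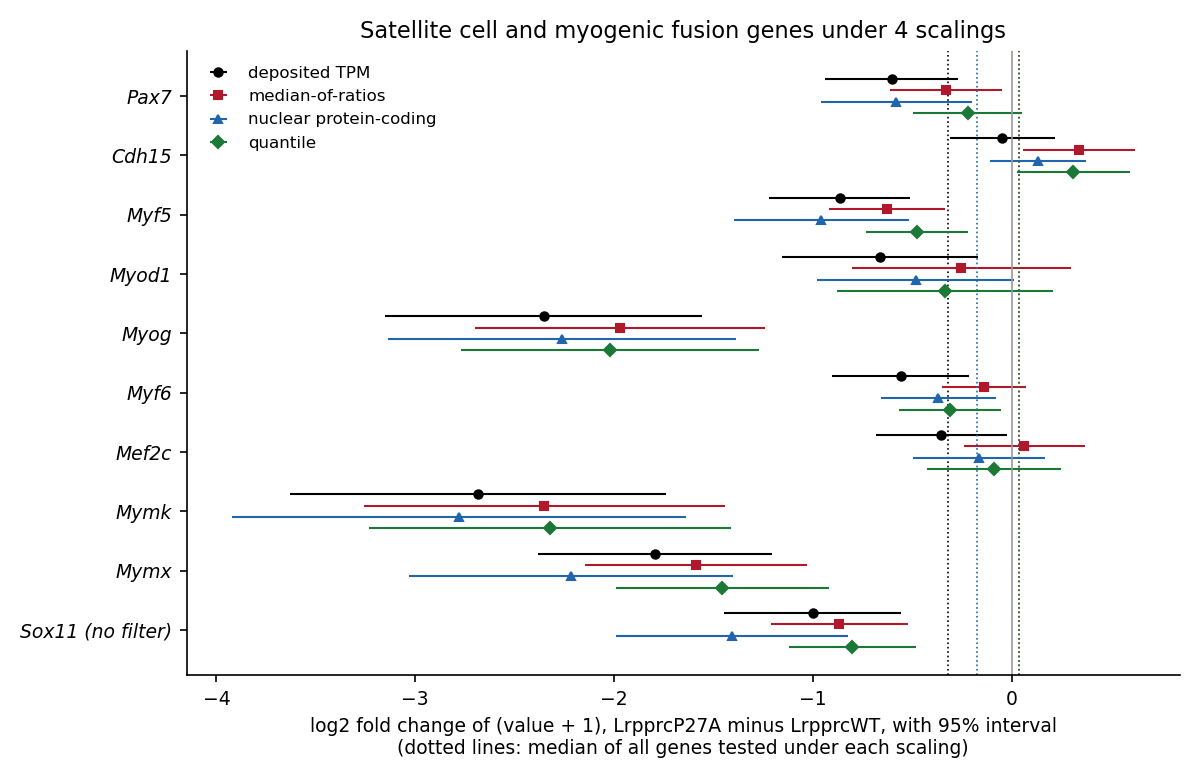
Log2 fold change of each gene on the scale of value + 1, LrpprcP27A minus LrpprcWT, with its 95% interval, under the deposited TPM (black) and 3 other scalings of the libraries (red, blue and green). Dotted lines mark the median of all genes tested under each scaling. The intervals of Myog, Mymk, Mymx and Myf5 lay below 0 under all 4 scalings, while Cdh15 and Mef2c crossed from negative to positive values.

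Mymk encodes myomaker, the membrane protein that lets myoblasts mix their membranes. The gene lies on chr2:26951627-26962228 (minus strand, 5 exons) inside the span of Adamtsl2 on the other strand, with no shared exon, and Adamtsl2 stood at 0.338 to 1.09 TPM. Mymk stood at 23.0, 8.73 and 22.0 TPM in LrpprcWT and at 3.79, 1.18 and 0.942 TPM in LrpprcP27A. The groups did not overlap, and the mean in LrpprcP27A was 11.003% of that in LrpprcWT, a 9.09-fold difference that was 16.9-fold without LrpprcP27A replicate 1. For Mymk the log2 fold change was -2.68 (SE 0.42, 95% interval -3.63 to -1.74, adjusted p = 0.0125), and 10 of the 11611 genes tested had a lower one. It was -2.35 after median-of-ratios scaling (adjusted p = 0.0256), -2.78 after rescaling over nuclear protein-coding genes (0.0332) and -2.32 after quantile normalization (0.0301). The call was lost without LrpprcWT replicate 3 (-2.49, adjusted p = 0.0918) and held without any of the other libraries. A block by mouse gave adjusted p = 8.00e-09 by limma, and 0.00534 with median-of-ratios scaling added.

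Mymx encodes myomixer, a small membrane protein that acts with myomaker to open the fusion pore (chr17:45911239-45913028, minus strand, 2 exons). It stood at 3.24, 2.37 and 5.10 TPM in LrpprcWT and at 0.733, 0.149 and 0.04952 TPM in LrpprcP27A. The groups did not overlap, and the mean in LrpprcP27A was 8.70% of that in LrpprcWT, an 11.5-fold difference that was 36.0-fold without LrpprcP27A replicate 1. Its log2 fold change was -1.79 (SE 0.26, 95% interval -2.38 to -1.21, adjusted p = 0.0116). Since 1 TPM was added to each value, that understates the change of so low a gene, and with 0.1 TPM added the log2 fold change was -3.48. Under the other scalings it was -1.59 (median-of-ratios, adjusted p = 0.0236), -2.22 (nuclear protein-coding, 0.0283) and -1.46 (quantile, 0.029). Without LrpprcWT replicate 3 the call was lost (-1.56, adjusted p = 0.0837). Mymx had adjusted p = 7.64e-07 by limma with the mouse as a block, and 0.00942 with median-of-ratios scaling added.

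Both fusion genes were lowest, within LrpprcWT, in replicate 2, and within LrpprcP27A they were highest in replicate 1. Per mouse, the level of Mymk in LrpprcP27A was 0.164, 0.135 and 0.0429 of that in LrpprcWT and that of Mymx was 0.226, 0.0629 and 0.00971, so mouse 3 had the largest drop and mouse 1 the smallest for both.

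Sox11, a transcription factor of embryonic and immature tissues, was listed at 1.78, 0.644 and 1.16 TPM in LrpprcWT and at 0.151, 0.0613 and 0.00612 TPM in LrpprcP27A (chr12:27384263-27392573, minus strand, 1 exon). Every LrpprcP27A library was below every LrpprcWT library, and the LrpprcP27A mean was 6.10% of the LrpprcWT mean, a 16.4-fold difference that was 35.4-fold without LrpprcP27A replicate 1. In the fit with no minimum level the log2 fold change was -1.001 (SE 0.19, 95% interval -1.45 to -0.56) and did not pass (adjusted p = 0.0618). With the mouse as a block in that fit the adjusted p was 0.0278, and 8 of the 10 members fell beside 15.0% of the 21450 genes. Sox11 also passed with 0.1 TPM added (-2.89, adjusted p = 0.0403) and without LrpprcWT replicate 2 (-1.19, adjusted p = 0.0118), both with no minimum level.

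Ratios of these genes within a library do not depend on how libraries are scaled to one another, and they are given as values with no test. Myog over Pax7 was 12.8, 9.81 and 20.3 in LrpprcWT and 5.87, 2.59 and 5.96 in LrpprcP27A. Myog over Myod1 was 1.34, 0.619 and 1.12 in LrpprcWT and 0.436, 0.187 and 0.234 in LrpprcP27A. Both ratios were lower in every LrpprcP27A library, with log2 differences of -1.61 and -1.87, so Myog was lower relative to the satellite cell factor and to the determination factor alike.

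Myf6 over Myog, the fibre factor over the differentiation factor, was 3.95, 4.58 and 2.76 in LrpprcWT and 9.59, 22.0 and 14.8 in LrpprcP27A, higher in every LrpprcP27A library by 1.99 on the log2 scale. Mymk over Myog was 0.670, 0.397 and 0.413 in LrpprcWT and 0.412, 0.336 and 0.153 in LrpprcP27A. Mef2c over Myf6 was 0.828, 0.772 and 0.571 in LrpprcWT and 0.777, 0.963 and 0.747 in LrpprcP27A. The last 2 ratios overlapped between groups.

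**Figure D3:**
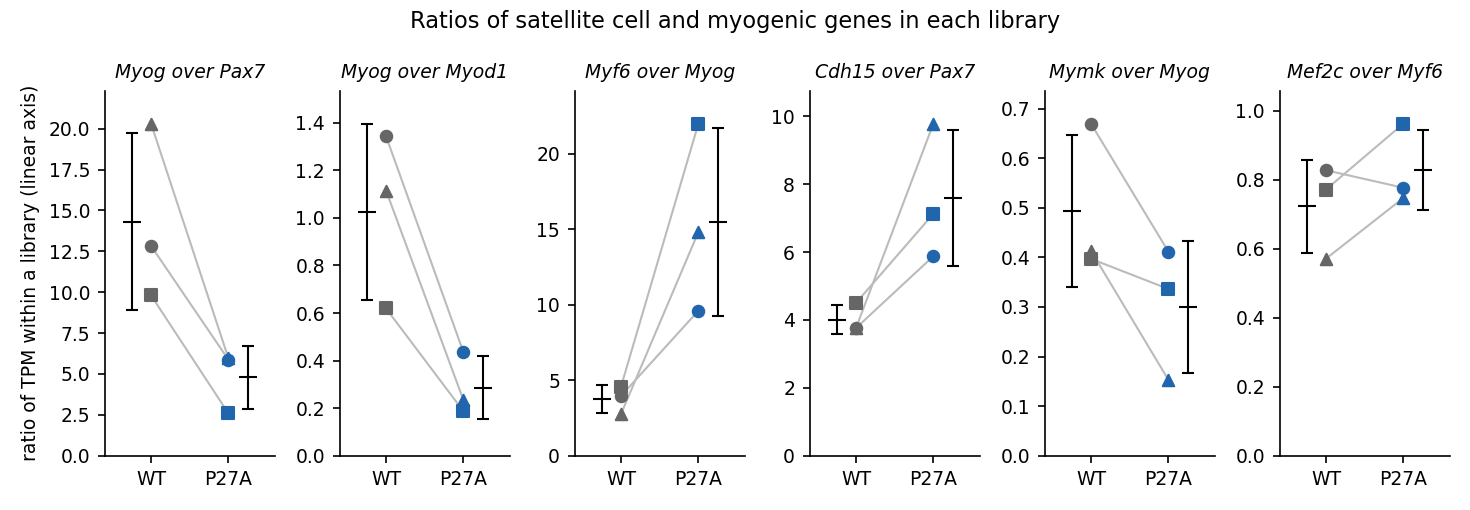
Ratio of the TPM of 2 genes within each library (linear axis from 0), with lines joining the muscles of the same replicate number (circle 1, square 2, triangle 3) and bars for the mean and SD (n = 3). Myog over Pax7 and Myog over Myod1 were lower, and Myf6 over Myog and Cdh15 over Pax7 higher, in every LrpprcP27A library than in any LrpprcWT library.

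The genes around these members were counted in 4 lists, which were also chosen with earlier results of these data known. For each list, the share of all 11611 genes tested that fell was 23.3%. It was 48.4% with the mouse as a block and 5.8% after median-of-ratios scaling, and 1.34% rose in the main fit. The share that rose after median-of-ratios scaling alone was not counted. Of 22 other satellite cell genes 19 could be tested, and 12 fell and 0 rose (18 fell with the mouse as a block, 9 after median-of-ratios scaling), with a median log2 fold change of -0.78. Their summed level was 252.7 to 348.9 TPM in LrpprcWT and 155.7 to 185.9 TPM in LrpprcP27A. The largest drops were those of the adhesion molecule Ncam1 (6.17 ± 2.30 to 1.44 ± 0.339 TPM, log2 fold change -1.51, adjusted p = 0.0126), the cell cycle inhibitor Cdkn1c (62.8 ± 15.3 to 22.3 ± 5.05 TPM, -1.45, 0.0116) and the chemokine receptor Cxcr4 (12.2 ± 2.50 to 4.41 ± 0.958 TPM, -1.28, 0.0116). All 3 also passed after median-of-ratios scaling (adjusted p = 0.022, 0.024 and 0.0231). Ncam1 is also made by denervated fibres, and Cxcr4 by immune cells.

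Of 21 partners and inhibitors of myogenic factors 19 could be tested, and 8 fell and 0 rose (13 fell with the block), with a median of -0.55; after median-of-ratios scaling 4 fell and 1 rose. The largest drops were in genes whose products restrain myogenic factors or E-box binding. Mdfi, which holds MyoD family factors in an inactive complex, went from 11.6 ± 4.48 to 2.63 ± 0.327 TPM (-1.74, adjusted p = 0.0111). Id2, which binds the E-protein partners of MyoD, went from 7.36 ± 2.29 to 2.76 ± 0.826 TPM (-1.14, adjusted p = 0.0189), and Snai1, a repressor at E-boxes, from 3.56 ± 1.13 to 1.09 ± 0.134 TPM (-1.10, adjusted p = 0.0158). After median-of-ratios scaling the adjusted p of these 3 genes were 0.0236, 0.0431 and 0.0255.

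Of 22 other adhesion and fusion genes, Kirrel1 was not matched and 16 could be tested, with 7 lower, 1 higher (Stab2, a scavenger receptor) and a median of -0.65. The count of lower genes was 12 with the block and 0 after median-of-ratios scaling, where 1 rose. The largest drops were those of Adam12, a metalloprotease of fusing myoblasts (1.75 ± 0.944 to 0.297 ± 0.227 TPM, -1.04, adjusted p = 0.029), Cd9, a tetraspanin (33.1 ± 7.54 to 17.0 ± 3.62 TPM, -0.92, 0.0236), and Itgb1, the beta 1 integrin (174.0 ± 39.9 to 104.1 ± 9.17 TPM, -0.71, 0.0271). None of these 3 passed after median-of-ratios scaling (adjusted p = 0.0505, 0.0549 and 0.0961). All these p-values are from limma over all genes.

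Of 12 genes of new or denervated fibres, all could be tested and 10 fell, with a median of -1.70; 10 also fell after median-of-ratios scaling. Their summed level was 1962 to 2751 TPM in LrpprcWT and 457.7 to 1121 TPM in LrpprcP27A. The perinatal myosin Myh8 went from 26.3 ± 13.5 to 2.60 ± 1.84 TPM (-2.90, adjusted p = 0.0116 by limma), the embryonic light chain Myl4 from 30.1 ± 11.3 to 4.42 ± 3.87 TPM (-2.67, 0.0144) and the embryonic myosin Myh3 from 18.6 ± 11.6 to 2.16 ± 2.12 TPM (-2.62, 0.0205). These 3 also passed after median-of-ratios scaling (adjusted p = 0.024, 0.0288 and 0.038). In LrpprcWT these 3 genes, like Mymk and Mymx, were lowest in replicate 2.

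**Figure D4:**
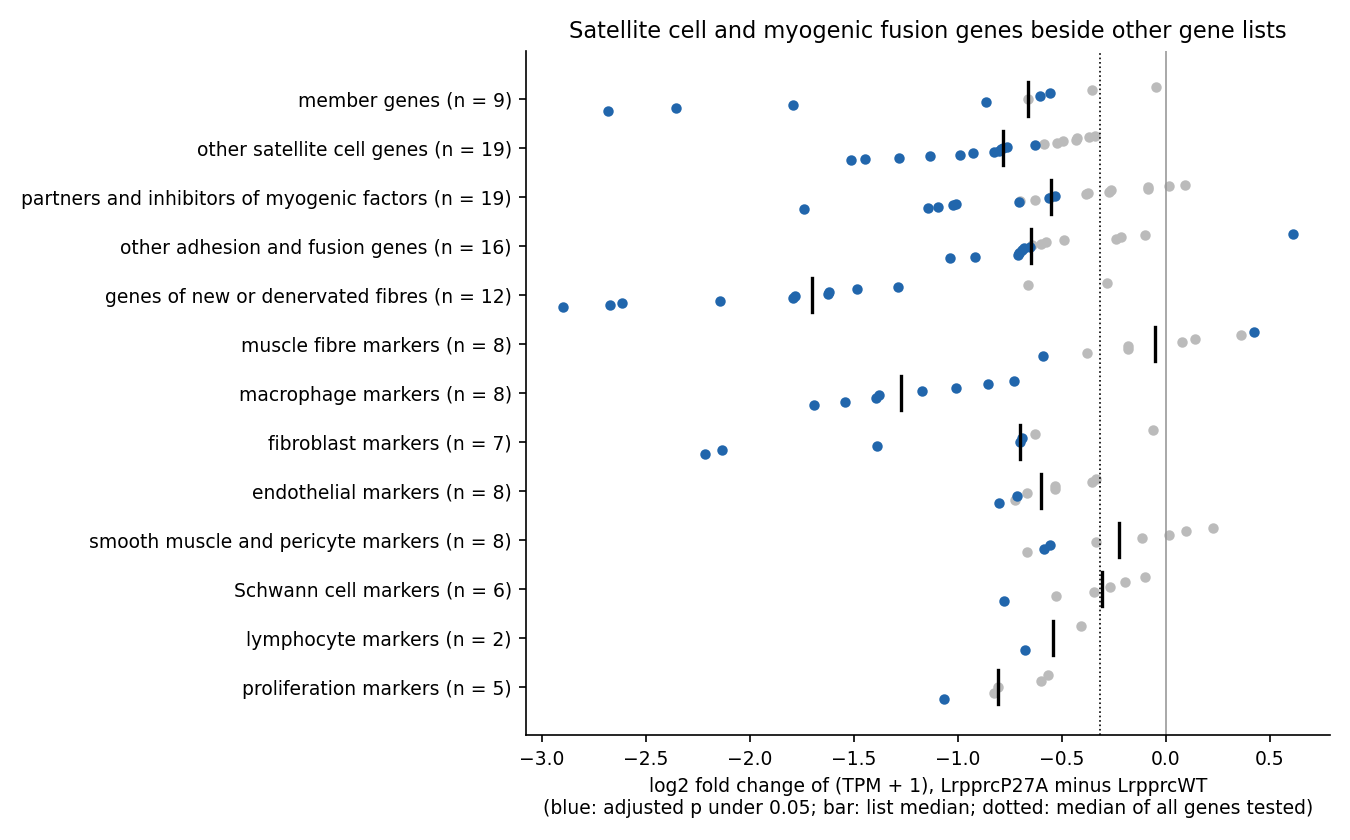
Log2 fold change of TPM + 1, LrpprcP27A minus LrpprcWT, of each tested gene of each list, with the genes at an adjusted p under 0.05 in blue, the list median as a bar and the median of all 11611 genes as a dotted line (-0.32). Genes of new or denervated fibres and macrophage markers had medians of -1.70 and -1.27, below the -0.66 of the satellite cell and myogenic fusion genes, and muscle fibre markers had a median of -0.05 (0.37 after median-of-ratios scaling, not plotted).

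Markers of the cell types in the muscle were set beside these genes. Of all genes tested 23.3% fell, and 5.8% after median-of-ratios scaling. In the main fit 1.34% rose, and the share that rose after that scaling was not counted. Muscle fibre markers held 122072 to 135232 TPM in LrpprcWT and 112230 to 127057 TPM in LrpprcP27A, with 1 of 8 lower, 1 higher and a median log2 fold change of -0.05 (0 lower, 1 higher and a median of 0.37 after median-of-ratios scaling), and Acta1, skeletal actin, stood at 41312 ± 3264 and 36285 ± 1019 TPM (adjusted p = 0.197, and 0.352 after median-of-ratios scaling). All 8 macrophage markers fell (3 after median-of-ratios scaling), with a median of -1.27 and a sum of 309.7 to 619.4 TPM in LrpprcWT against 103.6 to 212.4 TPM in LrpprcP27A. Adgre1, which encodes a macrophage surface receptor, went from 7.75 ± 2.79 to 2.87 ± 1.18 TPM (-1.17, adjusted p = 0.0259 by limma, and -0.83, 0.0567 after median-of-ratios scaling). Of 7 fibroblast markers tested 5 fell (3 after median-of-ratios scaling), with a sum of 1098 to 1626 against 432.4 to 788.3 TPM, and Pdgfra, a receptor of fibro-adipogenic cells, went from 5.67 ± 0.849 to 3.13 ± 0.761 TPM (-0.70, adjusted p = 0.0305, and -0.36, 0.106 after median-of-ratios scaling). The part of these cells in the lower levels of Pax7, Myf5, Myog, Mymk and Mymx was not tested.

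The markers of other cell types were counted in the same way, beside 23.3% of all genes tested that fell. That share was 48.4% with the block and 5.8% after median-of-ratios scaling. Of 8 endothelial markers 2 fell (8 with the block; sums of 211.4 to 374.8 and 157.9 to 218.9 TPM), of 8 smooth muscle and pericyte markers 2 fell (4 with the block; 353.2 to 486.9 and 291.4 to 394.4 TPM), and of 6 Schwann cell markers tested 1 fell (2 with the block; 57.0 to 73.1 and 32.8 to 64.1 TPM). Pecam1, of endothelial cells, was at 48.9 ± 14.8 and 28.5 ± 5.42 TPM (adjusted p = 0.0511), and Acta2, of smooth muscle, at 94.7 ± 22.0 and 59.6 ± 16.9 TPM (adjusted p = 0.0594). Sox10, of Schwann cells, and Cd3e, of T cells, were under the minimum level, at 0.858 ± 0.234 and 0.851 ± 0.304 TPM and at 0.231 ± 0.0214 and 0.0745 ± 0.000618 TPM. Only 2 of 8 lymphocyte markers reached the minimum level, and 1 fell (sums of 5.08 to 6.22 and 1.75 to 3.25 TPM over all 8). Of 5 proliferation markers tested 1 fell (5 with the block), with sums of 19.5 to 41.6 and 14.6 to 19.9 TPM over all 8, and Mki67, made by dividing cells, was at 2.80 ± 1.74 and 1.02 ± 0.413 TPM (adjusted p = 0.103). After median-of-ratios scaling 0 markers fell in each of these 5 lists. No marker of the cell type lists was at 0 in any library.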

How the data were processed

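RNA of 6 TA muscles, 3 electroporated with LrpprcWT and 3 with LrpprcP27A, was sequenced as paired-end reads. Per the study's methods, the authors used CLC Genomics Workbench to trim the reads and align them to GRCm39, and deposited 1 table of TPM per gene, with no further step between libraries. The members and gene lists were chosen with earlier results of these data known.

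From the deposited TPM, log2(TPM + 1) was fitted for the 11611 genes with a mean of at least 1 TPM by limma 3.58.1 in R 4.3.3 (eBayes, trend = TRUE), and p-values were adjusted by Benjamini-Hochberg over all of these genes. The script was tested on simulated data. Alternatives were a replicate block, pseudocounts, filters, other scalings (median-of-ratios over genes above 0 in all libraries, rescaling over nuclear protein-coding genes, quantile normalization), the Kruskal-Wallis test and leaving out each library. The muscles were contralateral, and the labels give the same library numbers (4, 8 and 9) in both groups, read here as the mouse. Deviations from the group means correlated at 0.363, 0.528 and 0.356 within same-numbered pairs and at -0.362 to 0.004 in the others. That the number is the mouse is not stated outright.

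Besides all 10 members, the 3 called genes with the largest absolute log2 fold change of each of the 4 lists were named, and the first gene of each cell type list. Stab2 was named after its value was seen. Gene positions are from GENCODE, GRCm39. The sequence before 1 member is not reported here. The study's methods state that each n counts samples from distinct mice, and no source used here describes the replicates further. The p-values measure only the spread between these samples. For that spread limma also borrows from the other genes, and more so in the fits with a block.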

Additional observations from a re-analysis of the deposited data

How the results depend on the processing

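With 3 libraries a group, calls near the threshold moved. The count of members lower, 6 as reported, was 3 at a mean of at least 5 TPM (6 members tested) and 0 with no minimum level (9 unadjusted). The Kruskal-Wallis test gave 0 (7 unadjusted), which says nothing of stability: with 3 against 3 its smallest p was 0.04954 and its smallest adjusted p over all genes 0.0969. Leaving out 1 library gave 0 to 7: 0 without LrpprcWT replicate 3, and 3 without LrpprcWT replicate 1 or LrpprcP27A replicate 3. For these changes of filter or library, all without the block, the share of all genes called was not counted. A lost call is thus not shown to be particular to the members. No member was called higher except with the replicate block and median-of-ratios scaling, where 1 was. At the minimum level used, the replicate block gave 8 members lower and changed only the calls of Myod1 and Mef2c. With no minimum level it also gave 8, Sox11 among them and Mef2c not, where the fit without the block gave 0. The log2 fold change of Cdh15 reversed to 0.34 (median-of-ratios, with and without the block), 0.31 (quantile) and 0.13 (nuclear protein-coding), and that of Mef2c to 0.064 (median-of-ratios, with and without the block). The cause was not tested. Of 164 refits of single members, 115 kept direction and call, 35 lost the call, 8 gained it and 6 reversed. That tally includes the Kruskal-Wallis refits, in which no call was possible. Those of Pax7, Myf5, Myog, Myf6, Mymk and Mymx are among the lost calls. The folds of means of Mymk, Mymx and Sox11 moved over 1.5 times without LrpprcP27A replicate 1, a check chosen after seeing the data. With TPM + 1, Cdh15 over Pax7 differed by 0.56 in place of 0.89 on the log2 scale. TPM keeps no depth, so the counting error of Mymx, Sox11 and Myf5, all under 1 TPM in LrpprcP27A on average, cannot be given.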
